A study of Rattus norvegicus with 32 samples.

Results

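The genes described here are 32 members of the synaptic vesicle, membrane fusion and synapse scaffold families, out of 23822 genes measured by RNA-seq in the rat hippocampus. They were chosen by name: a gene entered if its symbol belonged to the synaptophysin, synapsin, synaptotagmin, synaptogyrin, SV2, SNAP, syntaxin, VAMP, complexin, Rab3, RIM, Unc13, DLG, DLGAP, SHANK, Homer, pentraxin, neurexin, neuroligin, LRRTM, SLITRK, Bassoon or Piccolo names, and if that symbol appeared in at least 1 of the study's 4 tables of genes that differ between genotypes. A total of 3289 genes carried a symbol in those tables. All libraries came from 32 rats on the Crl:CD(SD) background. R237H rats were heterozygous (Gfap+/R237H) for a missense mutation of the endogenous gene of the astrocyte intermediate filament GFAP, the gene mutated in Alexander disease, and WT rats were their Gfap+/+ littermates. There were 4 R237H and 4 WT males and 4 R237H and 4 WT females at P56 (age 56 days), 4 R237H and 4 WT males at P21 (age 21 days), and among P21 females 5 were R237H and 3 were WT. The mutation is present from conception and in every cell that expresses Gfap, and each library is the whole dissected hippocampus of 1 rat, so neurons and glia were measured together.

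Transmitter is released when synaptic vesicles, coated with proteins such as synaptophysin, the synapsins and SV2, are docked by Rab3, primed by Unc13 proteins and fused with the membrane by SNARE proteins (VAMP on the vesicle, syntaxin and SNAP on the membrane) under the control of synaptotagmin and complexin. On the receiving side, the scaffolds of the DLG, DLGAP and SHANK families stack beneath glutamate receptors, and pentraxins and SLITRK proteins act in the cleft between both membranes. The same names also take in relatives outside the synapse, such as SNAP23, VAMP3, syntaxin 11, the Munc18 protein STXBP2 and UNC13D, which serve secretion and membrane traffic in many cells, including immune cells.

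By known role, 13 members are presynaptic, 5 are postsynaptic and 2 are pentraxins of the cleft, which makes 20 synaptic members. Of the other 12, 10 are genes of general membrane traffic, called trafficking paralogues below (Rab31, Rab38, Rab3il1, Snap23, Stx11, Stxbp2, Syngr2, Sypl1, Unc13d and Vamp3), 1 is the synaptotagmin relative Syt13, and 1 is the mitotic spindle protein gene Dlgap5, which shares only a name with the postsynaptic scaffolds. Rab31, Rab38, Rab3il1 and Stxbp2 also matched by the letters of the symbol: the first pair are Rab GTPases other than Rab3, Rab3il1 is an exchange factor and Stxbp2 is not a syntaxin. The rule rests on measured values, because the tables that supply the symbols list the genes with the smallest FDR in each comparison. The table of males at P56 named 25 members, that of females at P56 named 14, and those of males and of females at P21 named 9 each. In a comparison whose table named a gene, the difference between R237H and WT is therefore given as a description with no test. A gene was tested only in the comparisons that did not name it, and since it was left out of that table, the genes with the smallest FDR in a comparison are never among those tested in it. The members closest to the end of the part of each table used were Dlgap3 in males at P56 (-1.34 on the log2 scale), Dlgap5 in females at P56 (1.48), Sv2c in males at P21 (0.58) and Syt2 in females at P21 (-0.59). Genes that none of the 4 tables named carry no symbol here and could not be assigned to a family.

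Values per rat are CPM, counts scaled to the library size with TMM factors over all 32 rats. Total expected counts were 21580397 to 55544871 per rat, with all but 2 libraries at 38503686 or more, and no member had fewer than 35 expected counts in any rat. Gfap itself was higher in every R237H rat than in every WT rat in each comparison, at 3120 to 6989 CPM against 493 to 1082. Neuronal markers were also lower: the 6 of 12 markers of all neurons that carried a symbol (Rbfox3, Nefl, Nefm, Nefh, Thy1 and Stmn2) summed to 1239 to 1609 CPM in R237H rats at P56 against 2182 to 2753 in WT, and to 1933 to 2365 at P21 against 2403 to 2772. A marker carries a symbol only if the study's tables of differing genes named it. These sums therefore rest on genes listed for a difference between genotypes. CPM is a share of each library. In tissue of mixed cells, fewer neurons, less RNA per neuron and more RNA from other cells cannot be told apart. All 12 microglial markers listed were measured, and their sum was 1500 to 2385 CPM in R237H rats at P56 against 352 to 495 in WT. Choroid plexus markers, at a group minimum of 3.17 to 6.22 CPM in all 8 groups, reached 2014 CPM in 1 WT male, 486 CPM in 1 R237H female and 229.9 CPM in 1 R237H male at P56, and 1177 CPM in 1 WT female and 341 CPM in 1 WT male at P21. Their part in the results was not tested, and leaving out each rat in turn is reported where it changed a count.

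Promoter windows were read from RefSeq for the 21 members with an entry (GRCr8, 250 bases before to 50 after the gene start, in the direction of the gene). Those below are shown because they belong to members whose levels moved in opposite directions. Syn1, Vamp1 and Slitrk2 hold the cyclic AMP response element TGACGTCA, Syp is the most abundant member, and Stx11 and Stxbp2 are paralogues that were higher in R237H rats. Capitals mark TGACGTCA and the GC box GGGCGG on either strand.
Syn1 (GRCr8, chrX:3725495-3725794, plus strand): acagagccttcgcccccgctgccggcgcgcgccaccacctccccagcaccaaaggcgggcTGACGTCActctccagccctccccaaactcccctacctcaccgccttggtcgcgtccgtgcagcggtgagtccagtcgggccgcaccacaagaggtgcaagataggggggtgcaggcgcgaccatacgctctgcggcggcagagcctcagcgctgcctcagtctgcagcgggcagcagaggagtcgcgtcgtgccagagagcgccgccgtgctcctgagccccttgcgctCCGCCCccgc
Vamp1 (GRCr8, chr4:159698644-159698943, plus strand): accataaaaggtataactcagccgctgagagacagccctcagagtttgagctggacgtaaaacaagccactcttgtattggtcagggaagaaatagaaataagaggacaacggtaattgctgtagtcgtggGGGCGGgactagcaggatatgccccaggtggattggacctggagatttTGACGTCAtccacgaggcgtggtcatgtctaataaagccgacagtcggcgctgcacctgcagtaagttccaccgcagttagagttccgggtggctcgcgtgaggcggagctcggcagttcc
Slitrk2 (GRCr8, chrX:150291341-150291640, plus strand): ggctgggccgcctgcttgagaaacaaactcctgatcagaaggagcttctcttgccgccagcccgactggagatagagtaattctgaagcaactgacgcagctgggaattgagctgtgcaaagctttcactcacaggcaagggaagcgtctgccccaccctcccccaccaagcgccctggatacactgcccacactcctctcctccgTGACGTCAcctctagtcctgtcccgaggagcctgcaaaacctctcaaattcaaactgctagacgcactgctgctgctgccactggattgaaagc
Syp (GRCr8, chrX:17536400-17536699, minus strand): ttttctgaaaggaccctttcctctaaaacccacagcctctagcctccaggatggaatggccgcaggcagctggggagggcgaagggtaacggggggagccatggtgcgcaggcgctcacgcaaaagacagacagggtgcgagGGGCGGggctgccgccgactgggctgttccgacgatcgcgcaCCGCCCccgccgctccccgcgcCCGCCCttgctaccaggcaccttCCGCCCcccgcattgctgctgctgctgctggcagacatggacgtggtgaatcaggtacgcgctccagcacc
Stx11 (GRCr8, chr1:9140170-9140469, minus strand): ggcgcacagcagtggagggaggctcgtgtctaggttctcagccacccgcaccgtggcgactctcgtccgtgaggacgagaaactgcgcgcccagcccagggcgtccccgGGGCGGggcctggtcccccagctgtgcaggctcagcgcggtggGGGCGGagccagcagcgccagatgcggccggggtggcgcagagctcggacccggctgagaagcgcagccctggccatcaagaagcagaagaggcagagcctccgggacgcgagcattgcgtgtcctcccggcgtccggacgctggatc
Stxbp2 (GRCr8, chr12:6487076-6487375, plus strand): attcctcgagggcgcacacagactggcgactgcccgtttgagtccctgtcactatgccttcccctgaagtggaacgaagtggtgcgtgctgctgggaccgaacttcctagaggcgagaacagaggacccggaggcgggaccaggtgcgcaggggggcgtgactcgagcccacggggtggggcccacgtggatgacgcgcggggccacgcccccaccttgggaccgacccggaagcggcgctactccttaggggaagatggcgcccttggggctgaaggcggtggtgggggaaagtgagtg
The element TGACGTCA was found in 3 of 13 windows of synaptic members and 0 of 7 windows of trafficking paralogues, against 1.83% of the 33469 windows in the whole RefSeq table. The GC box was in 8 of 13 and in 5 of 7, against 33.1% of all windows. Other motifs searched on both strands were the CCAAT box (CCAAT, 6 of 13 and 1 of 7, against 37.5%), the E box CACGTG (0 of 13 and 3 of 7, against 6.42%), the AP-1 site TGANTCA (1 of 13 and 0 of 7, against 7.33%) and the STAT site TTCNNNGAA (0 of 13 and 0 of 7, against 8.87%). GC content had a median of 62.7% in the synaptic windows and 67% in those of the paralogues, against 51.7% over all windows. These are matches of letters, not shown binding sites.

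In WT rats at P56 the members differed widely in abundance, which was compared between genes as TPM, a measure corrected for transcript length. Syp, the gene of synaptophysin, a major membrane protein of the vesicle, was the highest at 1220 ± 58.5 TPM (SD, n = 8 for all WT values at P56). Nptxr, the neuronal pentraxin receptor, followed at 532 ± 90.9 TPM. The next levels were those of Cplx2, Syn1, Rab3a and Dlg4, at 370.0 ± 48.5, 350.1 ± 32.9, 349 ± 73.7 and 320.4 ± 57.9 TPM, and neighbours in this series differed by less than their SD. Dlg4, the gene of the scaffold PSD-95, was the most abundant postsynaptic member, and Dlg3 (97.4 ± 7.42), Dlgap3 (48.0 ± 20.8), Shank2 (43.7 ± 5.11) and Slitrk2 (13.1 ± 1.85 TPM) lay below it. Among the trafficking paralogues, Sypl1 was the highest at 69.3 ± 13.7 TPM, and Stx11 was the lowest of all members at 0.350 ± 0.0561 TPM.

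At P56 the synaptic and the trafficking members lay on opposite sides. In males, 19 of 20 synaptic members had a lower mean in R237H than in WT rats, with a median log2 fold change of -0.88, and all 10 trafficking paralogues had a higher one, with a median of 1.40. Most of these genes were selected on these rats, so the direction in males is largely a description, and over all 15097 genes the median was -0.006. Females, whose own table had left out 13 of the 20 synaptic members, gave a test on other rats. Among those 13, edgeR's quasi-likelihood test called 8 lower (Cplx2, Dlg3, Dlg4, Shank2, Syn1, Syn3, Syp and Syt7) and 1 higher (Sv2c) at an FDR under 0.01, and all 5 tested paralogues were higher (Snap23, Stx11, Sypl1, Unc13d and Vamp3). In females at P56, 11.1% of all genes tested were lower and 17% were higher, and over all members the counts were 8 lower and 6 higher of 18 tested. These shares are not a like comparison. Of the 8 lower genes, all except Syn3 entered only because the table of males at P56 named them, for the same contrast at the same age. Dlgap3 (edgeR FDR = 0.0393), Rab3a (edgeR FDR = 0.0437) and Syt2 (edgeR FDR = 0.323) did not pass. The summed neuronal markers given above were lower in the same rats, and their part in these results was not tested. With the title number, whose meaning the labels do not give, as a replicate block, the 8 lower calls and those of Sv2c, Stx11, Sypl1 and Vamp3 in females were lost, and those of Snap23 and Unc13d were kept. Only 2 numbers occurred in both genotypes there, and only their rats bear on the genotype difference in that fit. It therefore has little power, and the loss cannot decide whether the calls depend on the number. Without R237H female 2 the lower members were 5 instead of 8, since Cplx2, Shank2 and Syn1 no longer passed. In males at P56, 7 members were tested: Syt13 and Vamp1 were lower, Stx11 and Sv2c were higher, and 3 did not pass (Slitrk2, edgeR FDR = 0.0229, Syn3, edgeR FDR = 0.0232, and Syt2, edgeR FDR = 0.841), where 11.1% of all genes were lower and 16.8% were higher. Each of the 7 had entered through the table of females at P56 or a table at P21. These shares are therefore not a like comparison either. Without WT male 4, Slitrk2 and Syn3 also passed, which gave 4 lower members.

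**Figure D1:**
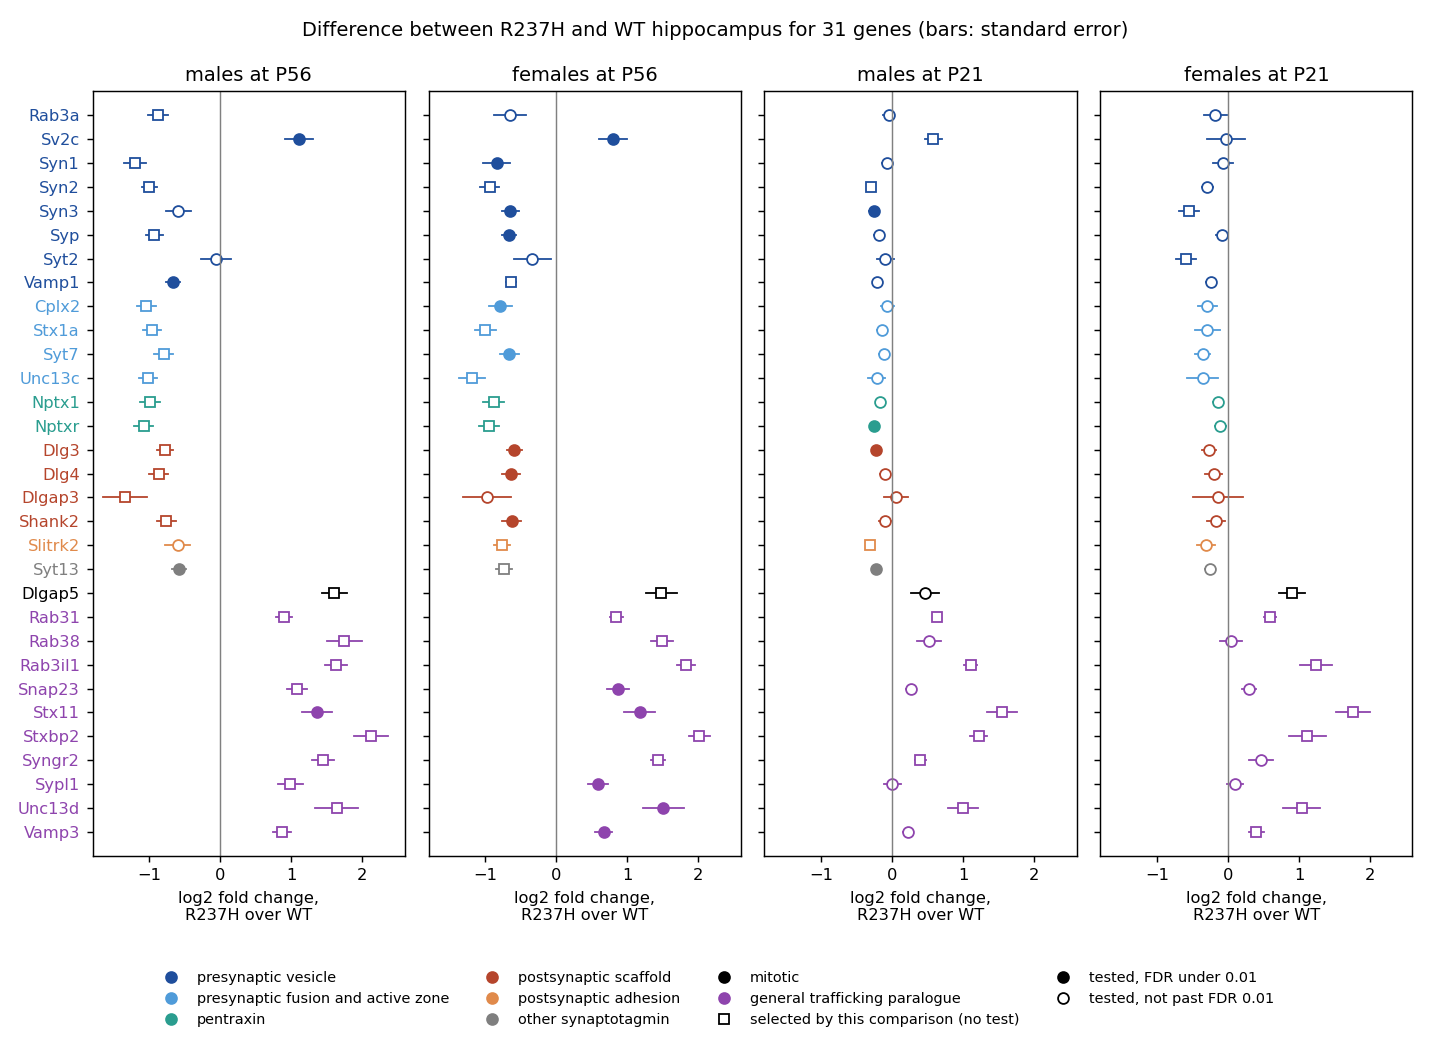
Log2 fold change of R237H over WT (x axis) for each of 31 genes (rows, coloured by role) in the 4 comparisons, with bars for the standard error. Squares are genes selected by that comparison, filled circles passed an FDR of 0.01 and open circles did not, and at P56 the synaptic genes lie left of 0 except Sv2c while the trafficking paralogues lie right of it.

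The choice of scale moved all genes together at P56. On log2(TPM + 0.1), the median over all genes tested was 0.40 in males and 0.26 in females at P56, and -0.01 and -0.07 at P21, whereas on TMM-scaled counts it was between -0.034 and -0.006. At P56 on this TPM scale, the synaptic members had a median of -0.47 in males and -0.36 in females. These were smaller in size than the -0.88 and -0.66 on counts. The paralogues had a median of 1.66 in males and 1.46 in females. Relative to the median of all genes, the synaptic members had a median of -0.87 in males and -0.62 in females at P56 on the TPM scale, and the paralogues one of 1.26 and 1.20. In each sex at P56, 19 of 20 synaptic members were below the median of all genes and 0 of 10 paralogues were. Values per rat below are in CPM, and ranges that are separate on that scale can overlap as TPM. Members for which this was so at P56 included Dlg4 and Shank2 in both sexes and Rab3a, Nptx1, Nptxr, Stx1a and Dlgap3 in males.

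Of the vesicle membrane genes, Syp was lower in R237H rats of both sexes at P56. It measured 1689, 1761, 2066 and 2317 CPM in WT males and 934, 964, 1054 and 1090 in R237H males. In females it measured 1691, 1723, 1835 and 1853 CPM in WT and 1038, 1041, 1216 and 1251 in R237H. The groups did not overlap in either sex, and in females, where the gene had not been selected, the log2 fold change was -0.66 ± 0.10 (SE, edgeR FDR = 0.000354). The synapsins, phosphoproteins that tether vesicles in the reserve pool, followed. Syn1 measured 598, 654, 878 and 998 CPM in WT males and 286, 338, 345 and 367 in R237H males, a log2 difference of -1.20 in the comparison that selected it. In females, Syn1 was at 606, 633, 735 and 819 CPM in WT and 284, 367, 377 and 551 in R237H rats, with a log2 fold change of -0.84 ± 0.19 (edgeR FDR = 0.00467). No R237H rat reached the WT values of Syn1 in either sex. Syn2 differed by -1.0 (males) and -0.94 (females) on the log2 scale, both in comparisons that selected it. Syn3, the least abundant synapsin, was lower in females (-0.65 ± 0.12, edgeR FDR = 0.00149), and in males its log2 fold change was -0.59 ± 0.18. Without R237H female 2, WT female 2, WT female 3 or R237H female 3, Syn1 did not pass in females.

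Vamp1, a vesicle SNARE, and Rab3a, the vesicle GTPase that acts before fusion, were also lower in R237H males. Vamp1 was at 241, 258, 267 and 317 CPM in WT males and 152, 167, 174 and 175 in R237H males, a log2 fold change of -0.67 ± 0.10 (edgeR FDR = 0.000551), and its 4 R237H females, at 160.0, 166, 169 and 171 CPM, were below the 4 WT females at 252, 254, 261 and 264. Rab3a had separate ranges in males, at 178, 209, 230.5 and 267 CPM in R237H and 367, 378, 419.5 and 494 in WT. As TPM the male ranges overlapped, with WT male 3 at 268.1 and R237H male 3 at 296.4. In females Rab3a overlapped in CPM too, at 176, 240.5, 292 and 322 in R237H and 296, 304, 471 and 535 in WT, where 2 WT females were no higher than the highest R237H female. Sv2c and Syt2 did not follow the other vesicle genes. Sv2c, an SV2 isoform of restricted neuronal distribution, was higher in R237H males (5.50, 6.10, 6.44 and 7.56 CPM) than in WT males (2.14, 2.94, 3.21 and 3.76 CPM), with a log2 fold change of 1.11 ± 0.20 (edgeR FDR = 0.00169). In females Sv2c was at 4.56, 6.43, 8.03 and 8.24 CPM in R237H and 3.61, 3.70, 3.71 and 4.47 in WT, with 0.80 ± 0.20 (edgeR FDR = 0.00776), a call that was lost when any 1 rat other than R237H female 3 was left out.

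Syt2, a calcium sensor of fast-releasing terminals, was at 3.03, 3.78, 5.23 and 5.29 CPM in R237H males and 3.96, 4.47, 4.52 and 5.50 in WT males, and the groups overlapped in both sexes at P56. Its log2 fold change was -0.06 ± 0.21 in males and -0.34 ± 0.26 in females, and in males it turned to 0.29 on log2(TPM + 0.1), where the median of all genes was 0.40.

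**Figure D2:**
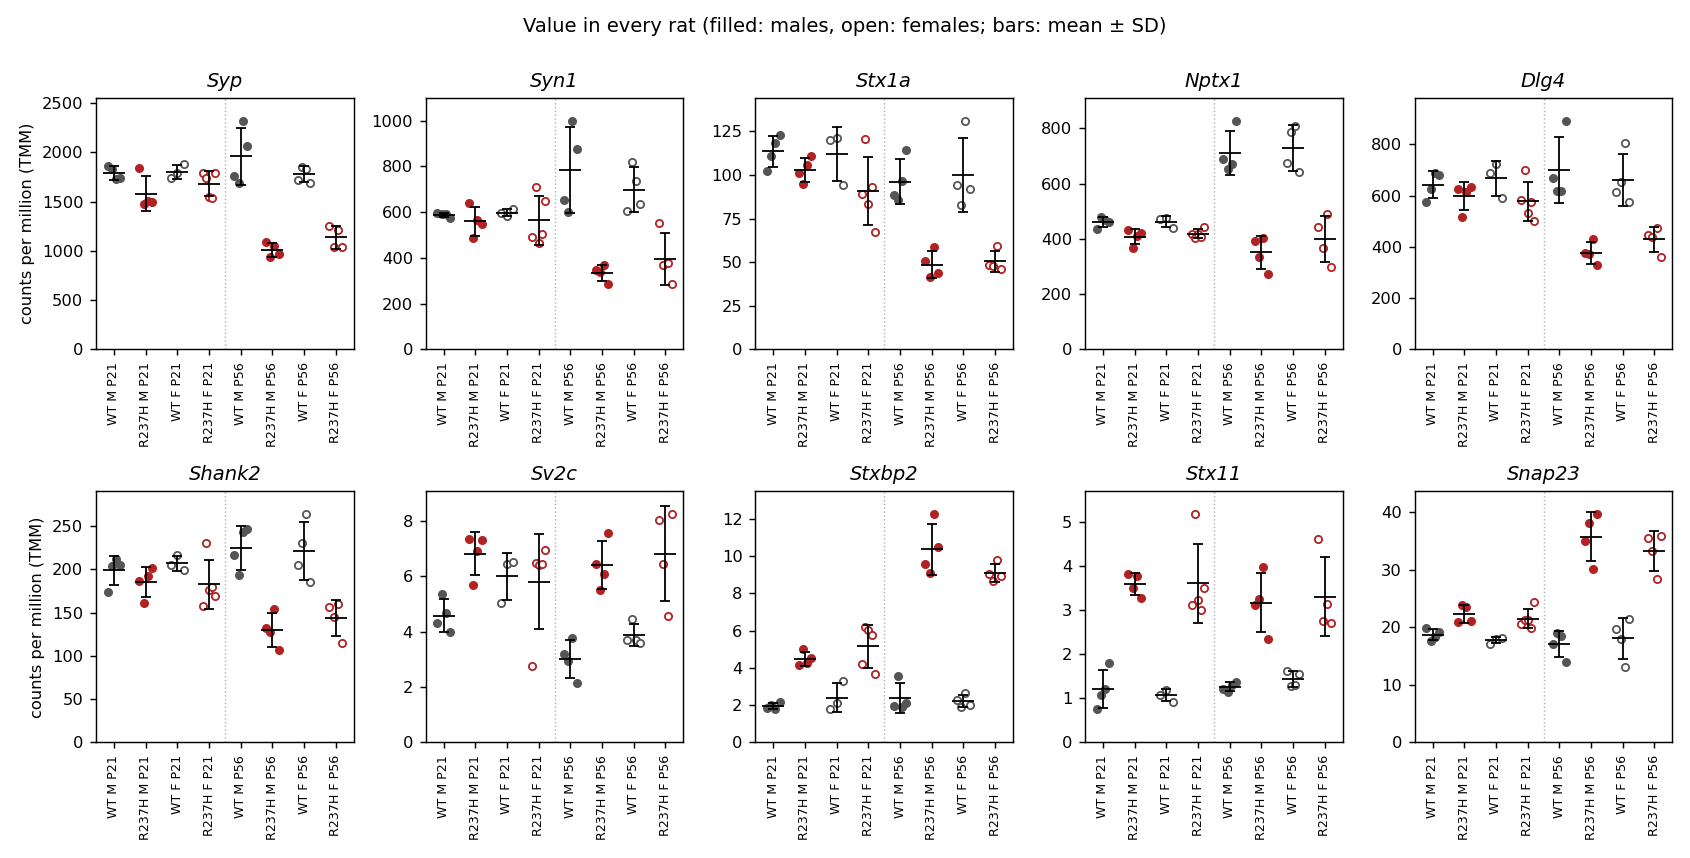
CPM in every rat (y axis from 0) for 10 of the genes in the 8 groups (x axis, P21 left and P56 right of the dotted line), with the mean and SD of each group. Syp, Syn1, Stx1a, Nptx1, Dlg4 and Shank2 are lower in R237H rats (red) at P56, while Sv2c, Stxbp2, Stx11 and Snap23 are higher, and at P21 Syp of R237H females, at 1540 to 1792 CPM, overlaps WT.

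The members of the fusion machinery and active zone were lower in R237H rats on average at P56. Stx1a, the gene of a neuronal syntaxin of the plasma membrane, was at 85.5, 88.3, 96.5 and 114 CPM in WT males and 41.4, 43.7, 50.5 and 59.0 in R237H males, and at 82.8, 91.9, 94.5 and 131 in WT females and 46.3, 48.1, 48.3 and 59.1 in R237H females. Both comparisons selected it, with log2 differences of -0.96 and -1.0. Cplx2, a complexin that clamps and then promotes SNARE fusion, was at 374, 377, 484 and 503 CPM in WT females and 190.5, 240.4, 283 and 297 in R237H females, a log2 fold change of -0.79 ± 0.16 (edgeR FDR = 0.00245). In males, Cplx2 was at 414, 416, 480.2 and 544 and 178, 209, 233 and 262 CPM, in the same order. Syt7, a slow calcium sensor, was lower in females (-0.66 ± 0.13, edgeR FDR = 0.00202) and was selected in males (-0.80). Unc13c, a priming factor and the least abundant gene of this set, was selected in both sexes, at 13.8, 21.4, 23.5 and 26.8 CPM in WT and 9.26, 9.30, 9.60 and 9.77 in R237H females, with log2 differences of -1.02 in males and -1.19 in females. The 4 R237H females lay within a narrow range of Unc13c, while the WT females did not.

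Both pentraxin genes, whose products cluster AMPA receptors from the cleft, were selected in both sexes at P56. Nptx1 was at 653, 670.0, 689.9 and 826 CPM in WT males and 271, 336, 393 and 402 in R237H males. In females, Nptx1 was at 643, 674, 788 and 808 CPM in WT and 297, 367, 443 and 488 in R237H rats. For Nptxr the log2 differences were -1.08 (males) and -0.95 (females), beside -0.99 and -0.88 for Nptx1. Among R237H females, Nptxr stood at 1232 CPM in rat 3 and at 846 to 860 CPM in the other 3.

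On the postsynaptic side, Dlg4 and Dlg3, scaffolds that hold glutamate receptors at the density, were lower in R237H rats of both sexes. Dlg4 was at 619, 619, 670.1 and 892 CPM in WT males and 328, 371, 378 and 430.2 in R237H males. The females gave 575, 614, 654 and 807 CPM in WT and 359.5, 439, 446 and 472 in R237H rats, a log2 fold change for Dlg4 of -0.64 ± 0.13 (edgeR FDR = 0.00255). No R237H rat reached the WT range of Dlg4 in CPM in either sex. As TPM the groups overlapped, with WT male 3 at 214.5 against R237H male 3 at 260.1, and WT female 4 at 283.3 against R237H female 3 at 289.3. Dlg3 was lower in females by -0.59 ± 0.11 on the log2 scale (edgeR FDR = 0.00188) and had been selected in males (-0.78). Shank2, which joins the scaffold to the actin cytoskeleton, was at 185, 205, 230.4 and 264 CPM in WT females and 114, 145, 157 and 160.0 in R237H females (-0.63 ± 0.14, edgeR FDR = 0.00421), a call lost without R237H female 2, WT female 2 or R237H female 4. Dlgap3, the link between the DLG and SHANK layers, had the lowest log2 fold change of all members in males (-1.34 ± 0.31), but it also varied widely among WT rats. It was at 82.2, 88.7, 117 and 206 CPM in WT males and 34.4, 41.4, 43.9 and 71.2 in R237H males, and at 70.6, 71.5, 144 and 191 and 38.4, 55.3, 66.7 and 83.3 CPM in WT and R237H females. The female groups overlapped. Slitrk2, a transmembrane protein that organizes synapses from the postsynaptic side, was selected in females (-0.76), and in males 1 WT rat at 44.3 CPM lay within the R237H range of 37.5 to 45.6 CPM.

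Presynaptic and postsynaptic members differed from WT by similar amounts at P56. The median log2 fold change was -0.88 over 13 presynaptic and -0.78 over 5 postsynaptic members in males, and -0.66 and -0.64 in females. In females, 5 of 9 tested presynaptic members were lower and 1 was higher (Sv2c). Of 4 tested postsynaptic members 3 were lower, where 11.1% of all genes were lower and 17% were higher. The table of males at P56 had selected 9 of the 13 presynaptic and 4 of the 5 postsynaptic members. The shares of all genes are therefore not a like comparison. Summed TPM of the 13 presynaptic members were 1930 to 2346 in R237H males against 2660 to 3311 in WT males, and 2064 to 2586 in R237H females against 2829 to 3270 in WT females. The postsynaptic sums were 323 to 427 against 377 to 622 in males and 354 to 467 against 459 to 619 in females, and these ranges overlapped in both sexes. Divided within each rat, the presynaptic sum was 5.70 ± 0.301 times the postsynaptic sum in R237H males, 6.01 ± 0.743 in WT males, 5.64 ± 0.332 in R237H females and 5.89 ± 0.412 in WT females (SD, n = 4 each). The difference between the genotypes in this ratio was smaller than the SD of the WT rats. At P21 the ratio was 5.78 to 5.99 on average in all 4 groups. The sums are dominated by Syp and Dlg4, and they are taken over genes selected for change.

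**Figure D3:**
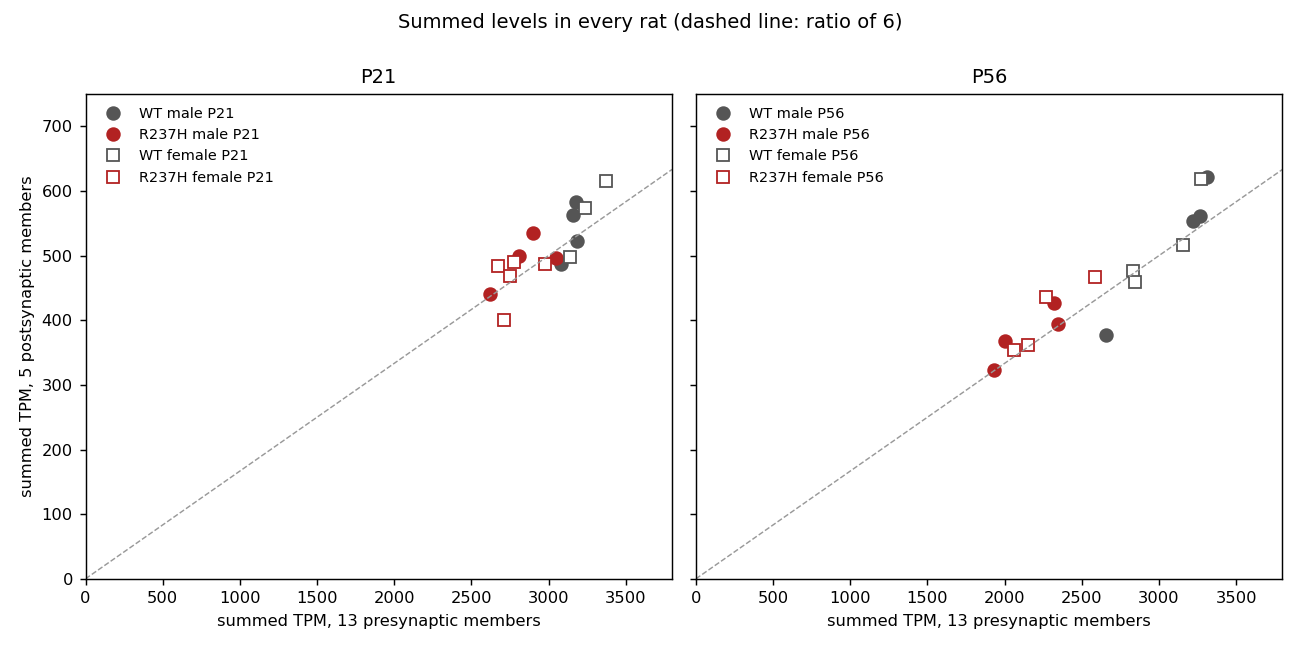
Summed TPM of the 5 postsynaptic members (y axis) against that of the 13 presynaptic members (x axis), 1 point for each rat, at P21 (left) and P56 (right), with WT in grey, R237H in red, males filled and females open. The dashed line marks a ratio of 6, and at P56 the R237H rats lie further down and just above the line, at ratios of 5.21 to 5.98, while the WT rats lie on both sides of it, at 5.29 to 7.07.

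The trafficking paralogues were higher in R237H rats. Stxbp2, a Munc18 relative needed for granule release in immune cells, was selected in all 4 comparisons and had the highest log2 fold changes of all members at P56. It was at 1.88, 1.95, 2.14 and 3.58 CPM in WT males and 9.12, 9.60, 10.5 and 12.2 in R237H males (2.13 ± 0.24), and at 1.91, 2.03, 2.26 and 2.65 and 8.64, 8.93, 9.02 and 9.77 CPM in WT and R237H females (2.02 ± 0.15). Stx11, the syntaxin that pairs with STXBP2 in cytotoxic granule release, was selected only at P21, so P56 gave a test. Stx11 was at 1.14, 1.22, 1.30 and 1.37 CPM in WT males and 2.34, 3.12, 3.24 and 3.98 in R237H males, with a log2 fold change of 1.36 ± 0.21 (edgeR FDR = 0.000641), and in females it was 1.18 ± 0.22 (edgeR FDR = 0.00186). Unc13d, the priming factor of the same granules, was higher in females by 1.51 ± 0.29 (edgeR FDR = 0.00221). These 3 genes were at or below 12.2 CPM in every rat at P56. The ubiquitous SNAREs Snap23 and Vamp3 were more abundant. In females, Snap23 was at 13.1, 18.0, 19.8 and 21.5 CPM in WT and 28.5, 33.3, 35.6 and 35.9 in R237H rats (0.87 ± 0.15, edgeR FDR = 0.00105). Vamp3 was at 35.3, 38.2, 43.4 and 44.3 CPM in WT and 55.7, 59.7, 68.0 and 75.2 in R237H females (0.67 ± 0.12, edgeR FDR = 0.0012). Sypl1, a synaptophysin relative found in many tissues, was 0.59 ± 0.14 higher in females (edgeR FDR = 0.00772), a call lost in 6 of 8 fits that left out 1 rat. Rab31, Rab38 and Rab3il1, which act in Rab-dependent traffic, and the synaptogyrin Syngr2 were selected in both sexes at P56, with log2 differences of 0.85 to 1.83. The summed microglial markers given above moved in the same direction as these 10 genes in the same rats, and their part in the result was not tested.

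The remaining 2 members belong to neither side. Syt13, a synaptotagmin that lacks the residues for calcium binding, was at 126, 154, 164 and 167 CPM in WT males and 96.9, 98.3, 102 and 104 in R237H males, a log2 fold change of -0.58 ± 0.10 (edgeR FDR = 0.0012). Dlgap5 was selected in 3 comparisons and was at 1.17, 1.35, 1.43 and 1.63 CPM in WT and 3.93, 4.03, 4.33 and 4.46 in R237H males at P56. The 8 markers of dividing cells (Mki67, Top2a, Cdk1, Ccnb1, Birc5, Bub1, Aurkb and Plk1) summed to 38.0 to 54.0 CPM in R237H rats at P56 against 11.9 to 18.4 in WT, and their part in the Dlgap5 values was not tested.

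At P21 the median log2 fold change of the synaptic members was -0.13 in males and -0.22 in females, against -0.88 and -0.66 at P56. Of the 20, the tables at P56 had selected 15 in males and 7 in females and those at P21 had selected 3 and 2, so this gap between ages is a description of values the rule used. In males, 4 of 23 tested members were lower (Dlg3, Nptxr, Syn3 and Syt13) and 0 were higher by edgeR's quasi-likelihood test at an FDR under 0.01, where 4.82% of all genes were lower and 12.4% were higher. At an unadjusted p under 0.05 by the same test, 7 were lower and 4 were higher, and the share of all genes at that threshold is not given here. The male table at P21 supplied 1999 genes, beside 721 lower and 1847 higher genes called here at an FDR under 0.01. The shares of 4.82% and 12.4% include the genes that table named and the tested members do not, so the rule limited both counts. Nptxr was at 1250, 1331, 1342 and 1385 CPM in WT males and 1073, 1085, 1131 and 1176 in R237H males, a log2 fold change of -0.25 ± 0.05 (edgeR FDR = 0.00308). Syn3 was at 45.5, 47.2, 48.1 and 50.8 CPM in WT males and 36.6, 40.4, 40.9 and 41.4 in R237H males (-0.26 ± 0.06, edgeR FDR = 0.00662). The groups did not overlap for either gene, although both differences were smaller than those of the same genes at P56. Dlg3 (-0.23 ± 0.06, edgeR FDR = 0.00986) and Syt13 (-0.23 ± 0.05, edgeR FDR = 0.00845) were close to the threshold. These 4 calls depended on single rats. Leaving out WT male 2, WT male 3 or R237H male 3 left 0 lower members, leaving out WT male 1 or R237H male 4 left 1, leaving out R237H male 2 or WT male 4 left 2, and leaving out R237H male 1 gave 3, with Syp in place of Syn3 and Syt13. DESeq2 also called Vamp1 lower and Snap23 and Vamp3 higher in males at P21.

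In females at P21, 0 of 23 tested members were lower and 0 were higher by edgeR's quasi-likelihood test, where 0.753% of all genes were lower and 7.06% were higher. This count was set by the rule, because the female table at P21 supplied 1999 genes, more than the 114 lower and 1070 higher genes called here, so that a called gene would have been selected. An unadjusted p under 0.05 was found for 8 of the 23 (6 lower and 2 higher), and DESeq2 called 3 lower (Syn2, Syt13 and Vamp1). The shares of all genes at these 2 settings are not given here. Syn2 was at 293, 304 and 306 CPM in WT and 221, 228, 244, 262 and 263 in R237H females, without overlap (-0.29 ± 0.08, edgeR FDR = 0.0419). Syp and Syn1 overlapped between the genotypes in both sexes at this age. Syp was at 1725, 1739, 1835 and 1859 CPM in WT and 1480, 1493, 1508 and 1841 in R237H males, where R237H male 1 was as high as the WT rats. Syn1 was at 575, 589.8, 592 and 594 CPM in WT and 486, 548, 564 and 639 in R237H males. Their log2 fold changes in males were -0.18 ± 0.07 for Syp and -0.07 ± 0.07 for Syn1, against -0.93 and -1.20 at P56. Sv2c was selected in males at P21 (0.58), while in females it was -0.03 ± 0.27, a sign that turned when R237H female 1, WT female 2 or WT female 3 was left out.

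At P21 the paralogues fell into those that the tables had selected and those that they had not, a split made by the rule. The difference in Stx11 was no smaller than at P56 in these values, at 0.756, 1.09, 1.21 and 1.80 CPM in WT and 3.27, 3.49, 3.76 and 3.80 in R237H males, and its log2 difference was 1.55 in males and 1.76 in females, both selected. Stxbp2, Rab3il1, Unc13d and Rab31 were also selected in both sexes at P21, with log2 differences of 0.59 to 1.24. Snap23 (0.26 and 0.29), Sypl1 (0.00 and 0.10) and Rab38 (0.52 and 0.04 in males and females) were tested in both sexes and did not pass, nor did Vamp3 in males (0.23) or Syngr2 in females (0.46). In females this outcome was set by the rule, as stated above. For Snap23 in both sexes, and for Rab38 and Vamp3 in males, every R237H rat was above every WT rat in CPM. On the TPM scale the signs of Sypl1 in males and of Rab38 in females turned.

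**Figure D4:**
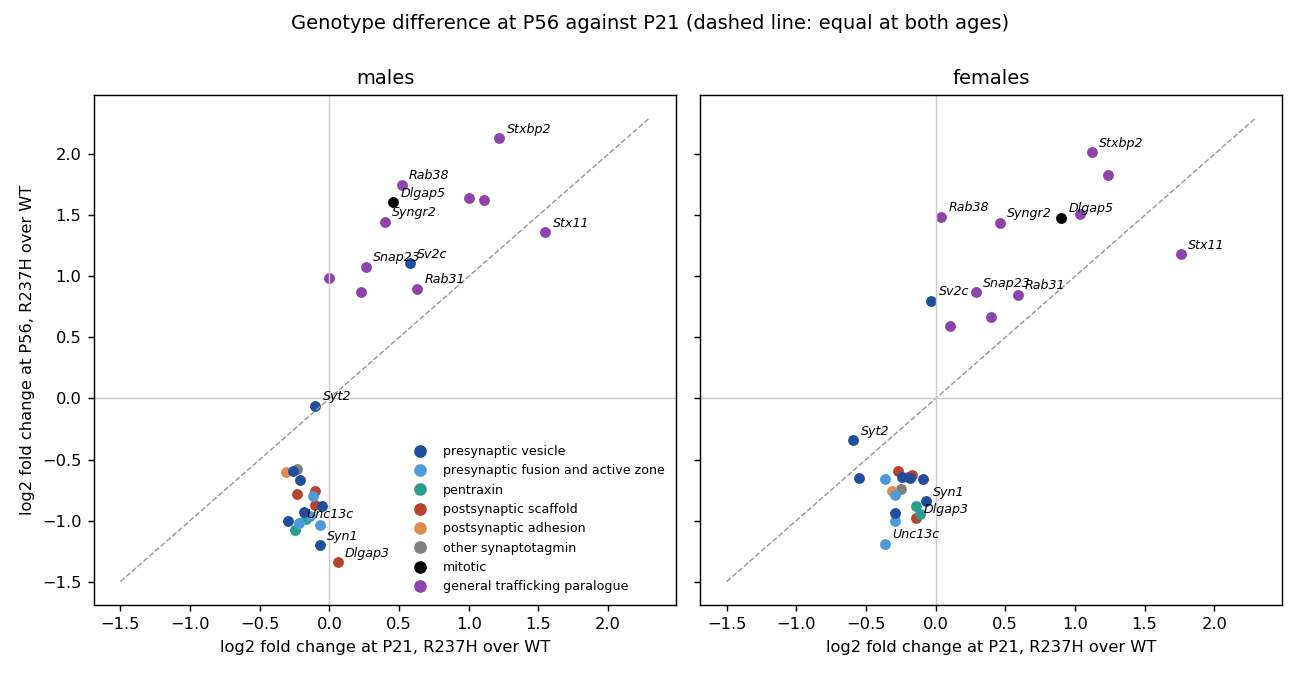
Log2 fold change of R237H over WT at P56 (y axis) against that at P21 (x axis) for 31 genes in males and females, coloured by role, with a dashed line where both ages are equal. The synaptic members have medians of -0.13 (males) and -0.22 (females) at P21 and of -0.88 and -0.66 at P56. Sv2c lies apart, at 0.58 (P21) and 1.11 (P56) in males and -0.03 and 0.80 in females. Syt2 lies at -0.10 and -0.06 in males, and Stx11 is the 1 trafficking paralogue below the line in both sexes.

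In a model of all 32 rats, the difference between ages in the genotype effect, averaged over the sexes, had a median of -0.62 over the 20 synaptic members (from -1.12 for Dlgap3 to 0.69 for Sv2c), -0.65 over the presynaptic and -0.56 over the postsynaptic ones, against -0.018 over all genes. It was 0.64 over the trafficking paralogues, of which Stx11 (-0.38 ± 0.22) was the 1 with a negative value. The rule had used rats of these comparisons for every member, so no test is given. In WT rats themselves the synaptic members had a median log2 difference of 0.06 between P56 and P21, with Nptx1 (0.60 ± 0.06), Dlgap3 (0.57 ± 0.26) and Nptxr (0.39 ± 0.06) higher at P56 and Syt2 (-0.74 ± 0.11) and Sv2c (-0.65 ± 0.12) lower. In R237H males Nptx1 in CPM was not higher at P56. These males were at 368, 409.7, 421 and 431 CPM at P21 and 271, 336, 393 and 402 at P56. WT males were at 437, 461, 468 and 478 CPM at P21. R237H females overlapped between ages, at 402.3 to 444.1 CPM at P21 and 296.7 to 488.5 at P56. As TPM, the R237H mean of Nptx1 was 136.3 at both ages in males, and 136.2 at P21 and 146.2 at P56 in females.

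The genotype effect was compared between sexes where the rule had used neither. At P21 this covered 15 synaptic members, and 0 differed by edgeR's quasi-likelihood test, with 0 at an unadjusted p under 0.05 and 0 by the likelihood-ratio test. At both ages the rule limited this count, since it left out every member that a table of that age named in either sex. Left out at P21 were Sv2c (0.62 ± 0.31, SE), Syt2 (0.50 ± 0.18), Syn3 (0.29 ± 0.17), Syn2 (0.00 ± 0.09) and Slitrk2 (0.00 ± 0.15). The median male-minus-female difference over the 20 synaptic members was 0.08. At P56 it covered Sv2c (0.28 ± 0.27, SE), Syn3 (0.03 ± 0.22) and Syt2 (0.25 ± 0.35), each with an edgeR FDR of 0.999, and 0 at an unadjusted p under 0.05. Over all 20 the median was -0.17, with 14 members more negative in males, which is the sex whose table selected most of them. A p that misses the threshold at these SE values does not show that the sexes were alike.

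A further gene of these families, Synpr, a synaptoporin of the synaptophysin family, carries a symbol but falls outside the naming rule. Its log2 fold change was -0.75 ± 0.09 in males and -0.82 ± 0.11 in females at P56, and -0.30 ± 0.06 and -0.30 ± 0.14 at P21, at 55.9 CPM in R237H against 95.8 in WT males at P56. Since its symbol also came from tables of changed genes, no test is given.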

How the data were processed

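PolyA-selected, stranded libraries from the hippocampus of 32 rats were analysed. The authors aligned reads with STAR and estimated expression with RSEM (genome build not given in the sources used here), and they deposited an expected count per gene, not scaled, and a TPM value. The expected counts, of which 5.68% were not whole (0.0977% for the members), were rounded. R237H was compared with WT within each sex and age by edgeR 4.0.16 (quasi-likelihood F-test, default filter, TMM), with the Benjamini-Hochberg FDR over all genes tested and a threshold of 0.01. SE values are the estimate divided by the square root of F. The method was tested on simulated data.

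Symbols came from the study's tables of differing genes, whose fold changes and p-values were not used, and cover 3289 of 23822 identifiers. The text names the genes the rule found, and Synpr; 1 member, which is part of the counts, medians and sums, is not reported here by itself. Of 135 family genes listed by hand, 33 had an identifier, so counts over whole families could not be given. The members and lists were chosen with earlier results of these data known. Roles are background knowledge.

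Rats share a title number that the labels do not explain. It entered as a replicate block in an alternative fit only. Promoter letters were counted in Python 3.11.15.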

Additional observations from a re-analysis of the deposited data

Results flagged for a closer look

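In groups of 4 or 5 rats, 14 of 224 sets of member values had a rat set apart from the others by Dixon's test, and chance gives about 1 in 20. Among R237H females at P21, replicate 2 was high for Cplx2 (413.4 CPM, others 307.6 to 315.9) and Stx11 (5.167 CPM), replicate 5 was high for Dlgap5 (3.569 CPM), and replicate 1 was low for Sv2c (2.754 CPM, others 6.4 to 6.951). Among R237H females at P56, replicate 3 was high for both Nptxr (1232 CPM) and Stx1a (59.12 CPM), and replicate 4 was low for Syt7 (54.34 CPM). Among WT females at P56, replicate 2 was high for Sv2c (4.471 CPM) and replicate 3 was low for Sypl1 (64.53 CPM). Among males at P56, WT replicate 4 was low for Rab38 (1.25 CPM), WT replicate 2 was high for Stxbp2 (3.584 CPM), and R237H replicate 1 was low for Syngr2 (34.71 CPM). In males at P21, R237H replicate 1 was high for Syp (1841 CPM, others 1480 to 1508) and WT replicate 3 was high for Unc13c (29.5 CPM). No cause was tested for any of these values.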

How the results depend on the processing

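The lower members in males at P56 were 2 in the reported fit and 4 at an FDR under 0.05, by the likelihood-ratio test, by DESeq2 and in a model of all 32 rats, each time with Slitrk2 and Syn3 added, and 2 to 4 when a rat was left out. In females at P56 the lower members were 5 to 9 and the higher 4 to 6 when a rat was left out. When rats sharing a title number formed a replicate block, the lower members there were 0 instead of 8 and the higher 2 instead of 6. Only rats of the 2 shared numbers bear on the genotype difference in that fit, which leaves it little power. The 2 shared numbers in females at P56 had correlations of 0.099 and 0.55 between the deviations of their rats from the group means, the 4 in males at P56 had 0.291, 0.005, -0.025 and -0.011, and the 3 pairs of rats in females at P21 had 0.036, 0.055 and 0.456. Not every pair was over 0.1, and the labels do not explain the number, so it was not taken to pair the rats. The block moved no count in males at P56 or females at P21. No block could be fitted in males at P21, which share 1 number. At P21 the lower members in males were 0 in the model of all rats and 0 to 3 when a rat was left out, and the higher were 3 at an FDR under 0.05 and 2 by DESeq2. In females at P21 the lower members were 1 at an FDR under 0.05 and 3 by DESeq2. The shares of all genes under these other settings are not given here.

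RLE factors left all 128 log2 fold changes on the same side. Near 0, signs turned when single rats were left out for Cplx2 (-0.13 to 0.02), Rab3a (-0.09 to 0.03), Dlgap3 (-0.08 to 0.19) and Sypl1 (-0.16 to 0.09) in males at P21, for Dlgap3 (-0.48 to 0.08), Rab38 (-0.01 to 0.08) and Sv2c (-0.14 to 0.15) in females at P21, and for Syt2 in males at P56 (-0.17 to 0.07). On log2(TPM + 0.1) and log2(TPM + 1), signs turned for Rab38 in females at P21 (-0.03 and -0.02), Sypl1 in males at P21 (0.06 and 0.06) and Syt2 in males at P56 (0.29 and 0.22). Sizes changed as well on log2(TPM + 0.1), as given above for the medians at P56. The median expected count over the members and rats was 3716, and no comparison was repeated at another depth. The causes of these changes were not tested.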

Other observations

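Other markers with a symbol, which the study's tables of differing genes had likewise named, moved beside the members at P56. Neurod2 and Neurod6, the 2 of 8 excitatory neuron markers with a symbol, summed to 147 to 201 CPM in R237H males against 308 to 438 in WT males, and to 148 to 290.1 against 289.9 to 371 in females. Npy, the 1 of 8 interneuron markers with a symbol, ran the other way, with a mean of 25.1 CPM in R237H males against 16.9 in WT males and 31.6 against 12.6 in females. The 2 of 8 markers of dentate granule neurons with a symbol lay on opposite sides, with log2 fold changes of -0.42 in males and -0.51 in females for Prox1 and of 0.31 and 0.37 for Npnt. Of the 8 astrocyte markers with a symbol, Gfap, Aqp4 and Sox9 had higher means in R237H rats of both sexes at P56, and the other 5 had lower means. In males and females, the log2 fold changes were -3.35 and -4.60 for Gjb6, -1.16 and -1.23 for Gja1, -0.93 and -0.84 for Aldoc, -0.57 and -0.40 for S100b and -0.58 and -0.48 for Slc1a2. Of the oligodendrocyte genes, Cldn11 had log2 fold changes of 1.35 and 1.29 and Opalin of 0.31 and -0.25. The 4 of 6 red blood cell markers with a symbol (Hba-a1, Hba-a3, Hbb and Alas2) summed to 19.1 to 38.0 CPM in R237H rats at P56 against 120.9 to 505.5 in WT, without overlap, and at P21 to 153 to 533 against 286 to 534 CPM. No marker of endothelium on the list carried a symbol. The part of these cells in the values of the synaptic genes was not tested.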
